A study of Mus musculus with 8 samples.

Results

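Levels of 10 lipid droplet and cholesterol efflux genes were compared between mouse spinal cord after a contusion and control cord. The genes were Plin2, Plin3, Soat1, Lpl, Fabp5, Abca1, Abcg1, Apoc1, Nr1h3 and Mylip, taken by symbol for their known roles. The choice was made with earlier results of these data known. These genes are 10 of the 20476 mRNA gene symbols on the array. They had 23 probes among the 47074 mRNA probes, and all 23 probes were well above background on all 8 arrays, so all 10 genes passed the filter on dim signals.

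Total RNA came from 8 female mice aged 8 weeks, and each mouse gave 1 sample of cord at T9-T10. The 4 contusion samples came from cord bruised by an impact and included the site of injury, and the 4 control samples carried no contusion. The titles put all contusion samples at 3 days, whereas their descriptions give 3, 4, 5 and 6 days for contusion replicates 1, 2, 3 and 4. The controls are named sham in the design text and normal cord in the sample descriptions. No strain, contusion force or other agent is given in the sources used here. RNA was labelled with Cy3 and read on Agilent 1-colour arrays that hold mRNA, lncRNA and circRNA probes.

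Cells that take up lipid, such as macrophages that clear myelin, break its lipids down in lysosomes and meet a surplus of free cholesterol. Cholesterol can then be joined to a fatty acid and stored in a lipid droplet coated by perilipins, or moved out of the cell by ATP-driven transporters onto apolipoproteins. The liver X receptors sense oxidised cholesterol and switch on genes of the export route, and one of their targets lowers the uptake of lipoproteins at the cell surface.

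Of these genes 9 of 10 were higher in contused cord and 0 were lower, at an adjusted p under 0.05 in limma, a linear model fitted here across all features with a shared estimate of the spread. Of all 18198 mRNA genes tested, 25.8% were higher and 25.4% were lower. Plin2 differed most, 5.78-fold, followed by Lpl at 3.93-fold, Abca1 at 3.56-fold and Soat1 at 3.19-fold. Abcg1 differed by 1.21-fold, and Plin3 did not pass the test. The median difference of the 10 genes was 0.88 on the log2 scale, beside -0.0016 over all mRNA genes. For 9 of the 10 genes every contusion array lay above every control array, as it did for 26.6% of all mRNA genes, and for 25.2% the contusion arrays all lay below. Between bulk samples, more cells of a type and more RNA per cell cannot be told apart.

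Levels are log2 intensities relative to the array's own 75th percentile, so they compare arrays for a given probe but not probes with each other. Differences are contusion minus control in log2 units ± the standard error of limma, with n = 4 arrays per group. A gene is represented by its brightest probe that passed the filter, and the other probes are given after it.

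Promoter sequence is shown for Abca1 and Mylip, which rose and which hold motifs searched for here, and for Plin2, which had the largest difference of the 10 genes. Each is the stretch of 250 bases before the start of transcription, from RefSeq on GRCm38.p6, read 5′ to 3′ on the strand of the gene. The Abca1 stretch is chr4:53159896-53160145 on the minus strand, the Mylip stretch is chr13:45389492-45389741 on the plus strand and the Plin2 stretch is chr4:86670060-86670309 on the minus strand. Capitals mark, in order along Abca1, an E box, a liver X receptor element and a TATA box, and in Mylip a TATA box.
Abca1 promoter: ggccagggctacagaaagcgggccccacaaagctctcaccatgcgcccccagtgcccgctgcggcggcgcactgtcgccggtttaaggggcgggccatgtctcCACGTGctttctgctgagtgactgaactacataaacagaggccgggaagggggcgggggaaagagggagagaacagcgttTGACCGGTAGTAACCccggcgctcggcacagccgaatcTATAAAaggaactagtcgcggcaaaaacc
Mylip promoter: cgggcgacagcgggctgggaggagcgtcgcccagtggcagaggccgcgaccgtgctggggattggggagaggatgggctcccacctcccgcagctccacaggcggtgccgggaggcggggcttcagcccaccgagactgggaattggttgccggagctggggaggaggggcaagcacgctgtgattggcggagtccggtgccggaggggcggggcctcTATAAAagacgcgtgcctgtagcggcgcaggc
Plin2 promoter: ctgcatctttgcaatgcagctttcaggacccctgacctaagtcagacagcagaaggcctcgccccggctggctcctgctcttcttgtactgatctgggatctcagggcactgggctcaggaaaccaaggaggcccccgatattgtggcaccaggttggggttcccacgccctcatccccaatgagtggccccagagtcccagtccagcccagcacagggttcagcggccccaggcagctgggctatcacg
Promoters were found for 6 of the 10 genes, Soat1, Nr1h3, Abca1, Plin2, Mylip and Plin3, with 7 stretches in all because Nr1h3 had 2 starts. The liver X receptor element was searched on both strands as a pair of GGTNA units with 5 bases between them, and 0.621% of 32851 promoters of the same length held it. Among the 7 stretches it was found in that of Abca1, as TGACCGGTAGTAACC between 67 and 53 bases before the start. The TATA box TATAAA, present in 12.4% of all promoters, lay 29 to 24 bases before the start of Abca1 and 32 to 27 bases before that of Mylip. The E box CACGTG, present in 6.02%, lay 147 to 142 bases before the start of Abca1. No stretch of the 7 held a pair of AGGNCA units with 1 base between them, the element of the peroxisome proliferator-activated receptors, which 0.338% of promoters held. None held TCACNCCAC, a sterol regulatory element, found in 1.05%. These matches overlapped no other motif of the search and describe letters only.

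Probe sequence is shown for 3 of the 4 Soat1 probes (a, c and d) and for Abcg1 probe b, since the probes of these genes gave unequal differences. Each line is the first 30 of 60 bases of a probe, 5′ to 3′, as the array files give them. In mm9, the build in the file headers, Soat1 probe a lies on chromosome 1 at 158359977 to 158360036 and probe c at 158358766 to 158358825. No position is printed for the other probes. No annotation of mm9 was used here, so exons and UTRs are not stated.
Soat1 probe a: tactaataatcccaaaatggctcctaaggc
Soat1 probe c: taagactgcaaactacttagcattcaaaga
Soat1 probe d: attaaaattacctgggtaacattgcttgcc
Abcg1 probe b: agctcgaggagcagactgtgttaatataaa
The longest run of bases that probe a of Soat1 shared with another Soat1 probe was 7 bases, and the Abcg1 probes shared at most 5. Probes of Apoc1 shared 33 bases, 2 of the 3 Mylip probes shared 38 and the Plin3 probes shared 16, so those probes read partly the same sequence.

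Several arrays stood apart from their group in markers of other cells. The summed level of 10 macrophage markers was 8.55 to 8.91 on the contusion arrays, against 6.55, 5.80, 6.44 and 4.55 on control arrays 1 to 4. The summed level of 8 adipocyte markers was 2.60 to 2.80 on contusion arrays, against 0.59 to 2.16 on control arrays 1 to 3 and 4.30 on control array 4. Their mean level was -1.90 to -1.36 on contusion arrays, against -2.37, -2.86, -1.30 and 0.20 on control arrays 1 to 4. Fabp4, which is in this set and weighs most in the contusion sums, lay at 1.97 to 2.35 on contusion arrays. Control array 4 was thus the lowest of all in macrophage markers and the highest in adipocyte markers. Adipoq, the hormone gene that defines fat cells, had levels of -4.26, -3.52, -2.50 and -5.07 on contusion arrays and -4.72, -5.41, -2.79 and -0.17 on control arrays. The 9 skeletal muscle markers summed to 7.45 and 5.73 on contusion arrays 1 and 2, against 4.49 to 5.15 on control arrays. The 9 neutrophil markers summed to 5.38 to 7.39 on contusion arrays, against 6.79 and 7.13 on control arrays 1 and 3 and 4.21 and 5.33 on control arrays 2 and 4. Contusion array 1 and control arrays 2, 3 and 4 shared slide 1 and a scan time, and the other arrays were on slide 2.

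**Figure D1:**
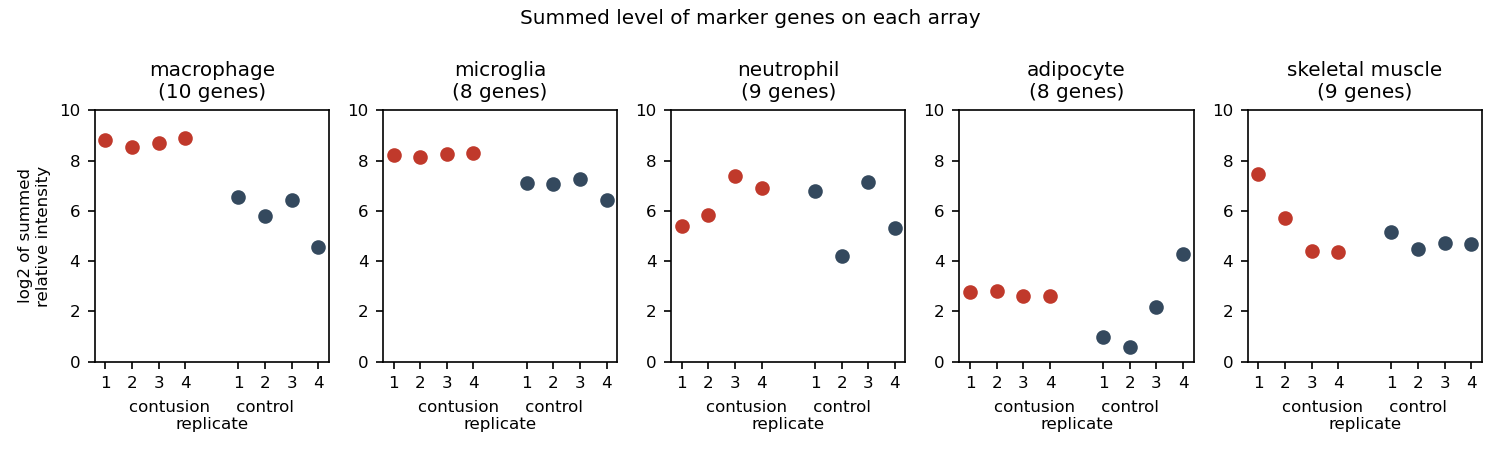
Log2 of the summed relative intensity (y axis) of marker genes of 5 cell types on each array (x axis, contusion replicates 1 to 4 in red on the left, control replicates 1 to 4 in dark blue on the right). Macrophage markers were higher on the 4 contusion arrays, at 8.55 to 8.91, than on any control array, and control array 4 was the lowest.

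Of the 10 macrophage markers all 10 were higher in contused cord, with a median difference of 2.69, and of 8 microglial markers 5 were higher and 0 lower. None of the 8 measured adipocyte markers was higher and 1 was lower, and Lep, the gene of the fat hormone leptin, was not well above background. None of the 9 muscle markers was higher and 1 was lower, and 2 of the 9 neutrophil markers were higher. Of 6 endothelial markers 4 were higher and 0 lower, with a median difference of 0.91 and a summed level of 6.40 to 6.54 on contusion arrays, against 5.76 to 6.07 on control arrays; Cdh5, the junction cadherin of vessel walls, differed by 1.45 ± 0.16. Of 6 astrocyte markers 3 were higher and 2 lower (2 and 2 with slide as a block). None of 6 Schwann cell markers passed the test, and their summed level was 7.12 to 7.50 on contusion arrays, against 6.52 on control array 2 and 7.14 to 8.25 on the other control arrays. Of 6 oligodendrocyte markers 1 was lower, and all 8 neuronal markers were lower. The tissue's own markers, 8 of neurons, 6 of oligodendrocytes and 6 of astrocytes, all passed the filter. The part of cell composition in the differences below was not tested.

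The lipid droplet coat genes stood far apart from each other. Plin2 encodes perilipin 2, the coat protein of droplets in most cells outside fat tissue. Its level was 6.07, 5.78, 5.66 and 6.10 in contused cord, against 3.50, 3.55, 3.56 and 2.88 in control cord. The lowest contusion array was above the highest control array by 4.29-fold in relative intensity, and control array 4 was the lowest of the controls. The difference was 2.53 ± 0.18 (adjusted p = 0.000106, 95% interval of the fold 4.36 to 7.65), a difference that 1.64% of mRNA genes exceeded. Without control array 4, which was also lowest in macrophage markers, it was 2.37 ± 0.12. The other Plin2 probe lay at -0.49, -0.63, -0.67 and -0.20 in contused cord, against -2.90, -2.68, -3.30 and -3.82 in control cord. Its groups did not overlap either, and its difference was 2.68 ± 0.24.

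Plin3 encodes perilipin 3, which is found in the cytosol and on new droplets in many cell types. Its level was 5.25, 5.44, 5.24 and 5.32 in contused cord, against 4.98, 5.35, 5.21 and 5.36 in control cord. The groups overlapped, with control array 1 below all the others. The difference of 0.09 ± 0.10 did not pass the test (adjusted p = 0.522), with a 95% interval of -0.14 to 0.32, and that of the other probe was 0.02 ± 0.10. The level of Plin2 minus that of Plin3 on the same array was higher in contused cord by 2.44, and its groups did not overlap (exact two-sided permutation test, p = 0.0286, the smallest that 4 against 4 arrays allow; adjusted p = 0.0286 over 4 gene pairs chosen after the values were seen). The gap between the groups in Plin2 was wider than the whole range of Plin3. This p was thus fixed in advance by Plin2 and adds no evidence.

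**Figure D2:**
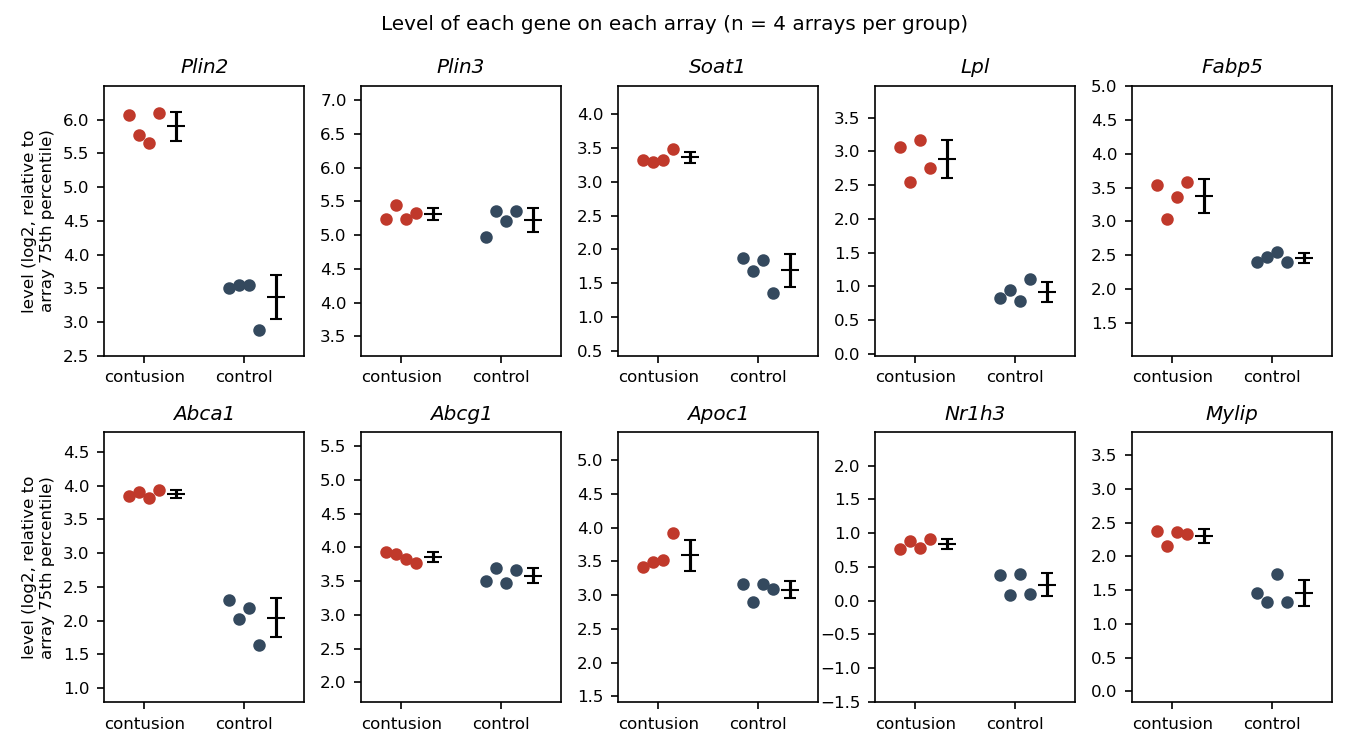
Level of each of the 10 genes on each array (y axes, log2 relative to the array's 75th percentile, each spanning the same number of log2 units), with contusion arrays in red at the left of each panel and control arrays in dark blue at the right; crosses with bars are the mean ± SD of 4 arrays. Plin2, Lpl, Abca1 and Soat1 show the widest separation, from 1.67 to 2.53 log2 units, and Plin3 overlaps between groups.

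Soat1 encodes the enzyme that joins cholesterol to a fatty acid, the step that makes cholesteryl esters for storage in droplets. Probe a had levels of 3.33, 3.30, 3.33 and 3.49 in contused cord, against 1.88, 1.68, 1.85 and 1.35 in control cord. The contusion arrays lay within a narrow band above every control array, and control array 4 was the lowest. The difference was 1.67 ± 0.12 (adjusted p = 0.000112), and it was 1.56 ± 0.08 without control array 4.

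All 4 Soat1 probes were higher in contused cord, but by unequal amounts. Probe b had levels of 0.68, 0.72, 0.59 and 0.75 in contused cord, against -0.23, -0.49, -0.48 and -0.63 in control cord, a difference of 1.14 ± 0.09. Probe c differed by 0.81 ± 0.10. Probe d lay at -0.60, -0.73, -0.40 and -0.37 in contused cord, against -0.93, -0.78, -0.90 and -0.98 in control cord, and differed by 0.38 ± 0.10. The groups did not overlap for any of these probes. Subtracting each probe from probe a within arrays, and fitting limma to all 22843 pairs of a gene's brightest probe with another of its probes, gave a wider difference for probe a by 0.53 ± 0.08 against probe b (adjusted p = 0.00322), by 0.86 ± 0.09 against probe c (adjusted p = 0.000581) and by 1.30 ± 0.12 against probe d (adjusted p = 0.000297). Such unequal pairs made up 13.6% of all those fitted and 4 of the 13 pairs from these genes. Which transcripts each of the 4 probes reads was not tested.

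**Figure D3:**
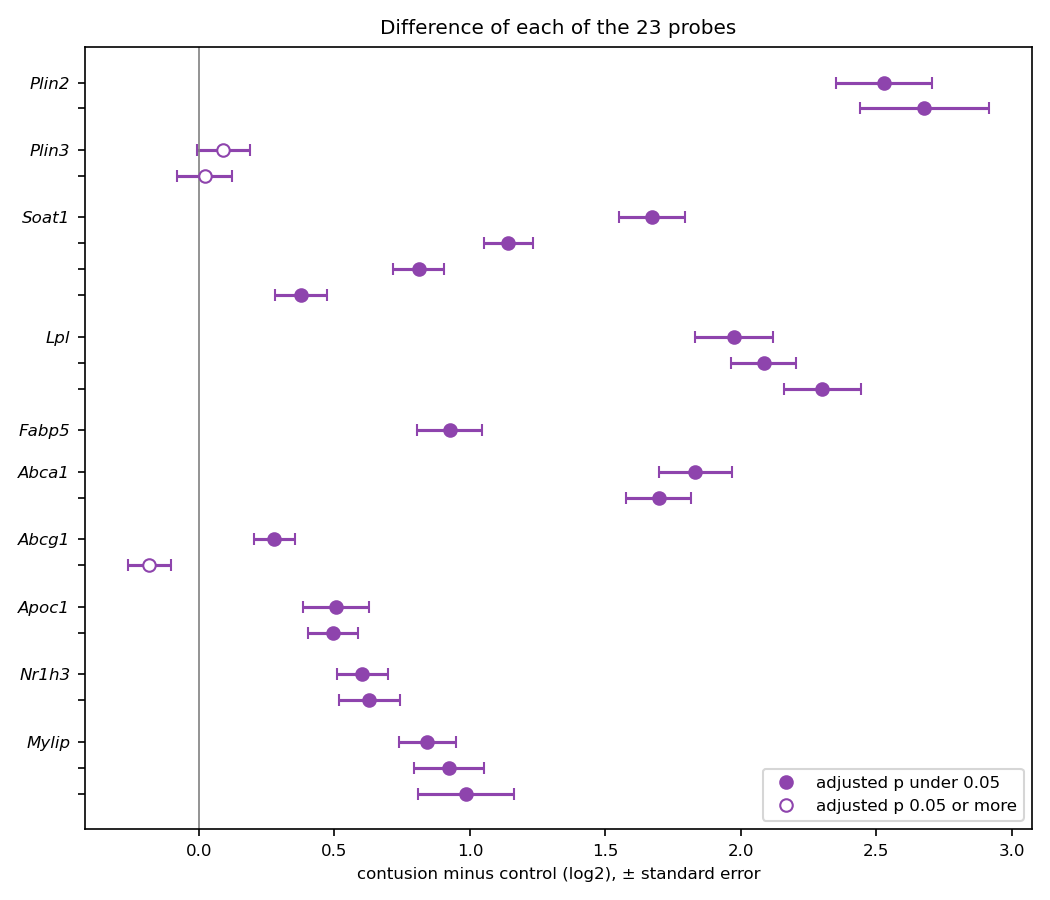
Contusion minus control difference in log2 units ± standard error (x axis) of the 23 probes, grouped by gene down the page with the probe that represents the gene first; filled points have an adjusted p under 0.05. The 4 Soat1 probes spread from 0.38 to 1.67, whereas the 3 Lpl probes lie between 1.98 and 2.30.

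Genes of lipid entry and handling were also higher. Lpl encodes lipoprotein lipase, which frees fatty acids from the triglycerides of lipoproteins and is made by macrophages as well as by fat and muscle. Its level was 3.07, 2.55, 3.17 and 2.76 in contused cord, against 0.82, 0.94, 0.78 and 1.10 in control cord. The groups were well apart. The difference of the brightest probe was 1.98 ± 0.15 (adjusted p = 0.000115), and the other probes differed by 2.09 ± 0.12 and 2.30 ± 0.14. Control array 4, with the highest adipocyte markers, was the highest control by the brightest probe and by that of 2.09. By the probe of 2.30, control array 1 was the highest control at -0.97, and control array 4 lay at -1.34. The contusion arrays high in muscle markers, 1 and 2, had no common place within their group. The part of fat or muscle tissue in Lpl was not tested.

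Fabp5 encodes a fatty acid binding protein that carries fatty acids inside cells. It had 1 probe, with levels of 3.54, 3.03, 3.36 and 3.58 in contused cord, against 2.40, 2.47, 2.55 and 2.40 in control cord. Contusion array 2 was the lowest of its group, as it was for Lpl, yet lay above every control array. The difference was 0.92 ± 0.12 (adjusted p = 0.000705), or 1.90-fold. The level of Lpl minus that of Fabp5 on the same array was higher by 1.05 in contused cord (exact two-sided permutation test, p = 0.0286, the smallest possible; adjusted p = 0.0286 over the same 4 gene pairs). Since the gap between the groups in Lpl was wider than the whole range of Fabp5, this p was fixed in advance and adds no evidence.

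The pair of efflux transporters differed in size of change. Abca1 encodes the transporter that passes cholesterol and phospholipid to lipid-poor apolipoproteins. Its level was 3.85, 3.91, 3.81 and 3.93 in contused cord, against 2.30, 2.03, 2.20 and 1.64 in control cord. The contusion arrays were nearly alike (SD 0.06), the control arrays spread more widely (SD 0.29), and the groups did not overlap. The difference was 1.83 ± 0.14 (adjusted p = 0.000118). The other probe lay at 2.90, 2.87, 2.81 and 2.86 in contused cord, against 1.42, 1.11, 1.29 and 0.83 in control cord. It differed by 1.70 ± 0.12, with control array 4 again the lowest.

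Abcg1 encodes a transporter that passes cholesterol to mature high-density lipoprotein. Probe a had levels of 3.94, 3.90, 3.82 and 3.77 in contused cord, against 3.50, 3.69, 3.47 and 3.66 in control cord. Every contusion array lay above every control array, with 1.06-fold in relative intensity between the nearest of them. The difference was 0.28 ± 0.08 (adjusted p = 0.0210). Probe b lay at 2.12, 1.97, 2.01 and 1.83 in contused cord, against 2.18, 2.16, 2.06 and 2.27 in control cord. Its groups overlapped, and its difference of -0.18 ± 0.08 did not pass the test (adjusted p = 0.0968). The differences of probes a and b were unequal by 0.46 ± 0.07 (adjusted p = 0.00220), and the mean of both probes gave 0.047 ± 0.073 (adjusted p = 0.651). Leaving out contusion array 1, contusion array 2 or control array 3 raised the adjusted p of probe a to 0.0538, 0.0520 and 0.0540. Abca1 minus Abcg1 probe a on the same array was higher by 1.55 in contused cord (exact two-sided permutation test, p = 0.0286, the smallest possible; adjusted p = 0.0286 over the same 4 gene pairs). Between the groups Abca1 left a gap wider than the whole range of Abcg1 probe a, so this p was fixed in advance and adds no evidence.

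Apoc1 encodes a small apolipoprotein of lipoprotein surfaces that hinders lipase action and particle uptake. Its level was 3.41, 3.49, 3.52 and 3.92 in contused cord, against 3.17, 2.90, 3.16 and 3.097 in control cord. Contusion array 4 was the highest, and no control array reached the contusion range. The difference was 0.51 ± 0.12 (adjusted p = 0.0119), and that of the other probe, which shares sequence with it, was 0.49 ± 0.09.

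The sterol receptor gene Nr1h3 and Mylip were both higher. Nr1h3 encodes liver X receptor alpha, the form found mainly in macrophages, liver and fat. Its level was 0.77, 0.89, 0.78 and 0.92 in contused cord, against 0.38, 0.08, 0.39 and 0.10 in control cord. The groups did not overlap, and controls 1 and 3 lay above controls 2 and 4. Controls 1 and 3 had the highest summed neutrophil and macrophage markers of the controls, among other sets. The difference was 0.60 ± 0.09 (adjusted p = 0.00154), and that of the other probe was 0.63 ± 0.11. Nr1h2, which encodes the widely expressed liver X receptor beta, fell by 0.56 on the log2 scale (± 0.09, adjusted p = 0.00186), and by 0.33 as the mean of its probes. For the brightest probe of each gene, Nr1h3 minus Nr1h2 on the same array was higher by 1.16 in contused cord (exact two-sided permutation test, p = 0.0286, the smallest possible; adjusted p = 0.0286 over the same 4 gene pairs). Every contusion array was above the controls in Nr1h3 and below them in Nr1h2, so this p was fixed in advance and adds no evidence.

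Mylip encodes a ubiquitin ligase that marks lipoprotein receptors for breakdown and is a target of liver X receptors. Its level was 2.37, 2.15, 2.35 and 2.33 in contused cord, against 1.46, 1.32, 1.74 and 1.32 in control cord. No array of either group lay in the range of the other. The difference was 0.84 ± 0.11 (adjusted p = 0.000586), and the other probes differed by 0.92 ± 0.13 and 0.98 ± 0.18. Vldlr at -0.21 ± 0.12 and Lrp8 at -0.11 ± 0.07, which encode receptors that Mylip acts on, did not pass the test.

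At the level of probes, 20 of the 23 were higher and 0 were lower, beside 26.5% higher and 27.2% lower among all 41043 mRNA probes tested. The 3 that were not called were both Plin3 probes and Abcg1 probe b. Within slide 1, which held 1 contusion array, the differences of the 9 called genes ran from 0.33 to 2.74. Within slide 2, which held 1 control array, they ran from 0.33 to 2.35, and those of Plin3 were -0.06 on slide 1 and 0.36 on slide 2. With slide as a block all 9 genes were still called, with Apoc1 nearest the threshold (0.42 ± 0.13, adjusted p = 0.0485), when 25.2% of all mRNA genes were higher and 20.4% lower. Without contusion arrays 1 and 2, or without control arrays 1 and 3, 8 of the 10 genes were called and Abcg1 was not.

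The arrays also carry probes for circRNAs, closed loops of RNA that are spliced from the exons of a gene, and name them by position. Set on the GRCm38 gene table, 98.2% of these positions fell within a gene, against 40.8% once moved by 1000000 bases, and their build is not given in the sources used here. Inside the loci of these genes 12 circRNAs were tested, and 11 were higher and 0 lower, beside 16.2% higher and 25.7% lower among all 35615 circRNAs tested. They fell in 5 of the 10 genes, with 6 in Soat1, 2 in Plin2, 2 in Abca1, 1 in Plin3 and 1 in Mylip. CircRNAs of a locus overlap each other and share its transcription, so they are not separate replicates.

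The circRNA differences kept the order of their genes. In Plin2 the larger circRNA had levels of 4.31, 4.03, 3.92 and 4.41 in contused cord, against 1.91, 1.77, 1.75 and 1.24 in control cord. No overlap was seen between the groups, and the Plin2 circRNAs differed by 2.50 ± 0.17 and 2.55 ± 0.19. In Abca1 they differed by 1.80 ± 0.20 and 1.79 ± 0.18. In Soat1 all 6 differed by 0.87 to 1.06, below the 1.67 of mRNA probe a and within the range of the other Soat1 probes, and this gap was not tested. The Mylip circRNA differed by 0.66 ± 0.14 (adjusted p = 0.00618). The Plin3 circRNA, at 0.67, 0.52, 0.62 and 0.61 in contused cord, against 0.50, 0.79, 0.45 and 0.77 in control cord, overlapped between groups and did not pass the test (-0.02 ± 0.09, adjusted p = 0.878). Whether these probes also bind linear RNA of the same gene was not tested.

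**Figure D4:**
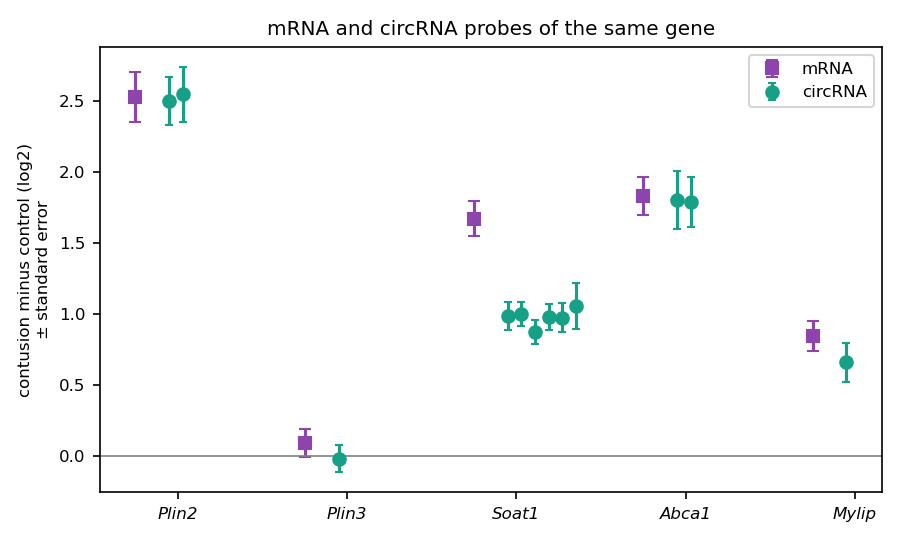
Contusion minus control difference in log2 units ± standard error (y axis) of the mRNA probe (squares) and of each circRNA (circles) of 5 genes. The circRNAs of Plin2 and Abca1 lie at the difference of their mRNA, at 2.50 to 2.55 and 1.79 to 1.80, and the 6 of Soat1 lie at 0.87 to 1.06, below their mRNA.

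Other genes of the same processes were compared from 10 lists. In lipid droplet turnover 1 of 22 measured genes was higher and 4 were lower, with a median of -0.12, and the counts were the same with slide as a block. Hilpda, which encodes a small inhibitor of droplet lipolysis, rose by 0.85 ± 0.12. Pnpla3, Lpin1, G0s2 and Lpin2, which act in triglyceride making or breakdown, had differences of -0.60, -0.68, -0.59 and -0.19. The perilipin genes Plin1 at 0.07 ± 0.29, Plin4 at -0.15 ± 0.36 and Plin5 at 0.06 ± 0.15 did not pass the test. Nor did the lipolysis genes Pnpla2 at -0.01 ± 0.09, Abhd5 at -0.08 ± 0.09, Lipe at -0.06 ± 0.10 and Mgll at -0.15 ± 0.07, the triglyceride synthesis genes Dgat1 at -0.22 ± 0.09 and Dgat2 at -0.35 ± 0.14, or Nceh1, a cholesteryl ester hydrolase, at 0.09 ± 0.07. Soat2, the other enzyme of cholesterol esterification, was not well above background on enough arrays to be tested.

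Among 15 partners and targets of the liver X receptors 3 were higher and 6 lower, with a median of -0.06, the same counts as with slide as a block. Lpcat3, which remodels phospholipids, rose by 0.74 ± 0.06, Smpdl3a, a phosphodiesterase, by 0.61 ± 0.06 and Mertk, a receptor for the uptake of dead cells, by 0.88 ± 0.15. Pltp, which transfers phospholipid between lipoproteins, fell by 0.73 on the log2 scale. Also lower were Rxrg at -0.62 ± 0.09, Scd1 at -0.60 ± 0.09, Fasn at -0.46 ± 0.12 and Rxrb at -0.30 ± 0.07, besides Nr1h2 as given above. The groups overlapped for Fasn. As the mean of a gene's probes, Lpcat3 differed by 0.49 and Pltp by -0.38. Srebf1, the receptor target that drives fatty acid synthesis, at 0.04 ± 0.08, Apoe at 0.19 ± 0.07 (adjusted p = 0.0581) and Rxra, a partner receptor, at -0.06 ± 0.12 did not pass the test. Abca1, Mylip and these targets thus had differences of unequal size and sign.

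Receptors and lipase cofactors had the widest range. Of 10 lipoprotein receptor genes 5 were higher and 1 was lower. Among the higher ones were Cd36, a scavenger receptor, at 3.29 ± 0.33 (2.14 with normexp background correction and quantile normalization), Lsr at 0.93 ± 0.12, Lrp1 at 0.53 ± 0.06 and Scarb1 at 0.52 ± 0.07. Their median was 0.21. Of 16 apolipoproteins and lipase cofactors 6 were higher and 3 lower (5 and 3 with slide as a block), with a median of -0.05. Apoc2, the activator of the lipase that Lpl encodes, was 4.33 ± 0.60 higher and Angptl4, which inhibits that lipase, 2.42 ± 0.24 higher. Gpihbp1, which holds the lipase on the vessel wall, did not pass the test at -0.18 ± 0.07, and Lcat, which esterifies cholesterol in lipoproteins, fell by 0.34 on the log2 scale.

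Of 12 genes of sterol release and transfer 5 were higher and 2 lower, with a median of 0.17. Lipa, the lysosomal acid lipase that frees cholesterol from its esters, was 1.12 ± 0.10 higher and Npc2, which carries cholesterol in the lysosome, 0.56 ± 0.06 higher, or 0.35 as the mean of its probes. Scarb2, Gramd1b and Gramd1c were higher by 0.71, 0.53 and 0.43. Npc1, the partner of Npc2, did not pass the test at 0.17 ± 0.07. Stard4, a sterol carrier, and Osbpl1a were lower, at -0.88 and -0.48, and Stard4 was -0.54 within slide 2. Slide as a block left these counts as they were.

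Of 6 oxysterol enzymes 2 were higher and 3 lower (2 and 2 with slide as a block), with a median of -0.17. Ch25h, which makes 25-hydroxycholesterol, rose by 3.90 ± 0.44 and Hsd3b7 by 1.11 ± 0.11. Cyp46a1, the cholesterol 24-hydroxylase of neurons, had a difference of -0.90 ± 0.07 (-0.50 as the mean of its probes). All 8 neuronal markers were lower too, and the part of neurons in the Cyp46a1 difference was not tested. Sult2b1 had a difference of -0.82 ± 0.16 and Cyp27a1 of -0.62 ± 0.20. The groups overlapped for Cyp27a1, and it was -0.15 within slide 2. Of 18 genes of sterol synthesis and sensing 0 were higher and 16 lower (15 with slide as a block), with a median of -0.64. Scap and Insig2, which act in sterol sensing, did not pass the test.

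Among 18 genes of fatty acid binding, activation and oxidation 5 were higher and 6 lower (5 and 4 with slide as a block), with a median of -0.02. Fabp7, the fatty acid binding protein of glia, was higher by 1.32 ± 0.09, and Cpt1a, Acsl5, Hadha and Cpt2 by 0.36 to 0.47. Fabp3 at -0.50 ± 0.08 and Acsl3 at -0.60 ± 0.08 were lower. Fabp4, a binding protein of fat cells and macrophages, lay at 2.35, 2.20, 1.97 and 2.20 in contused cord, against -1.22, -2.24, 0.81 and 3.30 in control cord. The groups overlapped through control array 4, the array with the highest adipocyte markers, a set that includes Fabp4 itself. The difference of 2.02 ± 1.05 did not pass the test (adjusted p = 0.168), and without that array it was 3.07 ± 0.63 (adjusted p = 0.00979).

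Of 11 other ABC lipid transporters 2 were higher and 5 lower, with a median of -0.06. Abcg2 was higher by 0.56 ± 0.06. Abcg4, the neuronal relative of Abcg1, was lower at -0.80 ± 0.10 and Abca2, a transporter of oligodendrocytes, at -0.43 ± 0.09, and Abca5, Abca8b and Abcd2 were lower too. Of 5 peroxisome proliferator-activated receptors and coactivators, Ppard was higher at 0.37 ± 0.07 and 3 were lower (2 with slide as a block), Ppargc1a at -0.82 ± 0.08, Ppargc1b at -0.79 ± 0.11 and Ppara at -0.38 ± 0.10. Pparg did not pass the test at 0.08 ± 0.12.

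**Figure D5:**
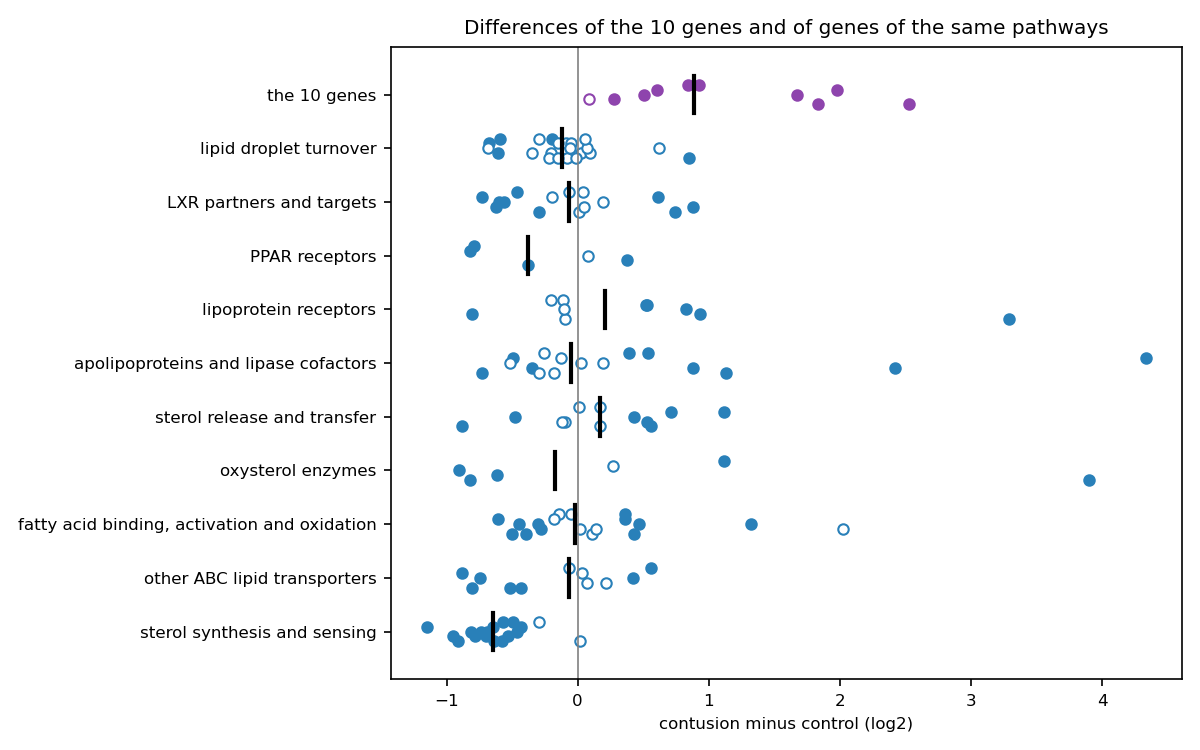
Contusion minus control difference in log2 units (x axis) of the 10 genes and of each measured gene of 10 related lists (rows); filled points have an adjusted p under 0.05 and the black bar is the median of the row. The median of the 10 genes is 0.88, those of the other lists lie between -0.64 and 0.21.

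The genes whose profile over the 8 arrays lay nearest to that of Plin2, each profile taken relative to its own control mean, were Hpse, Plp2 and Frrs1, at root mean square differences of 0.16, 0.18 and 0.18 log2 units. Their differences were 2.37 ± 0.13, 2.58 ± 0.20 and 2.50 ± 0.24. Among the nearest to Abca1 were Tgif1 and Msn, at 0.07 and 0.08, with differences of 1.77 ± 0.15 and 1.82 ± 0.12. This nearness describes 8 arrays and carries no test.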

How the data were processed

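Spinal cord RNA from 4 contusion and 4 control samples was read on 1 array each. Per the file headers, the deposited spot intensities come from Agilent Feature Extraction with background subtraction and detrending, without scaling between arrays; the submitters' processing notes name version 10.7 and limma, and the headers read 12.0.3.1. The deposited files also flag each spot as dim, saturated or outlying. The deposited log2 table holds the authors' values, quantile normalized, and served as an alternative.

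Processed intensities were put on a log2 scale and each array's 75th percentile over non-control probes was subtracted. After removal of control and outlier spots, a probe had to be well above background on 4 or more of 8 arrays irrespective of group, and the brightest represented its gene. Between 72.9% and 75.4% of an array's probes met the background flag, and 0 spots were saturated. Symbols came from a RefSeq table of GRCm38.p6, in which 99.1% of 22694 mRNA accessions were found. Of the headers' 172336 spots per array, 155279 were analysed here. Differences were tested two-sided in limma 3.58.1 under R 4.3.3, with Benjamini-Hochberg adjustment over 89139 features of all RNA classes and a call at 0.05. Pairs of probes were compared with limma on within-array differences, and pairs of genes with exact permutation (scipy 1.17.1). Precision is limited by the number of arrays, with a median standard error of 0.0944 for an mRNA. Scripts were tested on simulated data.

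The members and lists were chosen with earlier results of these data known. The rule for named genes took all members, fixed genes of the lists, and the called gene of lowest adjusted p per list and direction. Other list genes were named after their values were seen. Some genes and probe sequences that the rules select are not reported here. Alternatives were other background corrections, normalizations, filters and probe rules, slide or replicate number as a block, and leaving out arrays. Same-numbered contusion and control arrays had deviation correlations of -0.24, 0.03, 0.06 and -0.17, against -0.22 to 0.22 for arrays of unlike number. These values gave no sign that the numbers pair the samples, but cannot exclude it.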

Additional observations from a re-analysis of the deposited data

Results flagged for a closer look

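In 40 groups of 4 arrays, the 10 genes and 10 marker lists in contusion and in control, 2 held an array far from the other 3 by Dixon's ratio, and chance gives about 1 in 20 groups. Plin2 in control replicate 4 had a level of 2.88, with the other control arrays at 3.50 to 3.56. Soat1 in contusion replicate 4 had a level of 3.49, with the other contusion arrays at 3.30 to 3.33.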

How the results depend on the processing

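The differences of Plin2, Soat1, Lpl, Fabp5, Apoc1, Nr1h3 and Mylip kept their direction under every alternative that was run, and their call under every one with a test, and with each array left out in turn they ran from 2.37 to 2.61, 1.56 to 1.74, 1.88 to 2.15, 0.86 to 1.04, 0.39 to 0.56, 0.55 to 0.65 and 0.80 to 0.94. Abca1 was called throughout, at 1.70 to 1.92 with an array left out, and its difference within slide 2 was 1.58. Soat1 was 1.00 as the mean of its probes. Plin3 was never called: it was -0.040 without control arrays 1 and 3, and -0.061 within slide 1 and 0.36 within slide 2, where 1 group has 1 array. Abcg1 was not called as the mean of its probes (0.047, adjusted p = 0.651), without contusion arrays 1 and 2 (0.22, adjusted p = 0.152) or without control arrays 1 and 3 (0.18, adjusted p = 0.124), both chosen after seeing the data, and it ran from 0.24 to 0.31 with an array left out. With the replicate number as a block, Abcg1 was 0.28 with an adjusted p of 0.0662 and 8 genes were called. No sign was seen that these numbers pair the samples, and the block ended no other call among the 10 genes. The cause of these shifts was not tested. Between 8 and 9 genes were higher and 0 lower under all alternatives, and of the circRNAs 10 to 11 were higher. Over the pathway lists 25 to 36 genes were higher (30 as reported) and 39 to 55 lower (48 as reported). The slide and the described day of injury cannot be told apart, and the day of 3 contusion samples is uncertain. With 4 arrays per group, differences well under the intervals given for Plin3 could not be told from 0.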
